A study of Mus musculus with 6 samples.

Results

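The matrix metalloproteinases and their tissue inhibitors, the TIMPs, were followed as a set of 10 genes chosen by name from the 27240 genes of the deposited expression table. They were 7 metalloproteinase genes (Mmp8, Mmp13, Mmp2, Mmp9, Mmp12, Mmp14 and Mmp19) and 3 inhibitor genes (Timp1, Timp2 and Timp3), and all 10 were in the table. RNA came from mouse primary peritoneal macrophages, the phagocytes of the abdominal cavity, and every library was labelled as treated with oxLDL (oxidised low-density lipoprotein), controls included. The genotype label was wild type for 3 libraries and knockout for the other 3. The series title names DCLK1, a doublecortin-like kinase, and IKKβ, a kinase that activates NF-κB. The sources used here do not give the deleted part of the gene, the cells in which it was deleted, or the strain, sex and age of the mice. The comparison asks which transcripts differ between the genotypes under oxLDL. The response to oxLDL itself was not analysed here.

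Matrix metalloproteinases are zinc-dependent enzymes that cut collagen, elastin and other proteins outside the cell. They are made as inactive precursors and are opened by plasmin or by other proteases, and TIMPs then block the active site by binding to it. Macrophages of atherosclerotic plaques are a known source of them, and the loss of collagen from the fibrous cap is commonly attributed to their activity.

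Total counts per library lay between 68053008 and 79090732. Dclk1 was at 7.13 ± 0.383 CPM (counts scaled to library size, SD, n = 3) in wild-type against 5.53 ± 0.370 CPM in knockout libraries (edgeR adjusted p = 0.332), which checks the genotype labels only weakly. The labelled cell type was checked against 10 macrophage markers, whose summed level was 4520.4 to 4707.6 CPM in wild-type against 4660.1 to 4756.5 CPM in knockout libraries. None of the 10 was at 0 in any library. The sum came mostly from Cd68 (1994 and 1993 CPM), Adgre1 (1057 and 1016 CPM) and Csf1r. Gata6, Timd4 and Icam2 were low, at 2.67, 1.22 and 1.03 CPM in wild-type against 2.01, 0.826 and 1.10 CPM in knockout libraries. The sum says little about these low genes, and the peritoneal origin was taken from the label. The higher sum in knockout rests on Itgam (327 ± 91.4 against 513 ± 91.6 CPM, SD, n = 3 each), without which it was 4188.0 to 4413.4 against 4157.7 to 4243.4 CPM. The fitted log2 fold change was below 0 for 7 of the 10 markers, and Csf1r was lower without overlap (1021 ± 33.0 against 965 ± 4.45 CPM, edgeR adjusted p = 0.394). The labels do not say whether replicates came from separate animals, and p-values here reflect the spread among these libraries alone, possibly a technical one.

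Promoter windows show which upstream elements the members do and do not share. RefSeq (GRCm38.p6) held windows for 7 of the 10 genes, 8 windows in all, since Mmp12 has a pair of annotated starts. Mmp2, Mmp9 and Mmp19 had no entry. The 250 bases before each start were searched on both strands for the AP-1 element TGANTCA, the Ets-family element AGGAAG (PEA3), the box TATAAA and the NF-κB consensus. No match overlapped another. The AP-1 and NF-κB matches and the PEA3 match of Mmp14, the gene with the lowest p among the 10, are shown as stretches of 60 bases on the plus strand with the match in capitals:
Mmp13, AP-1, chr9:7272452-7272511: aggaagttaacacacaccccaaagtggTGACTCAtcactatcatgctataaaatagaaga
Mmp12, second start, AP-1, chr9:7347303-7347362: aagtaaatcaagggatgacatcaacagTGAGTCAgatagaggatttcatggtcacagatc
Mmp12, first start, NF-κB, chr9:7344241-7344300: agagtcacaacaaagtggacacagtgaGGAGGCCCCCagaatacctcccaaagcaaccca
Mmp14, PEA3, chr14:54431362-54431421: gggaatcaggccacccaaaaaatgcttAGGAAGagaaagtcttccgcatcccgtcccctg

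The AP-1 match began 35 bases before the start of Mmp13 and 44 bases before the second start of Mmp12. AP-1 matches were in 2 of the 8 windows, against 6.75% of 32851 RefSeq promoters searched in the same way. The PEA3 element was in 6 of the 8 windows, all but those of Timp2 and the second Mmp12 start, against 29.5% of all promoters. TATAAA was in 1 window, that of Mmp13, against 12.4%, and the NF-κB consensus was in 1, that of the first Mmp12 start, against 7.25%. The G and C share was 39.6% to 44.8% in the windows of Mmp8, Mmp12 and Mmp13, and 65.6% in that of Timp3, with a median of 52.4% over all promoters. A match is a description of the sequence, and binding was not measured here.

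Levels of the 10 genes are compared here as FPKM, the deposited values scaled for gene length and library size. Mmp12 was the most abundant with a mean of 69.3 FPKM over the 6 libraries, which ranked it 570 among the 27240 genes. Mmp14 followed at 53.3 FPKM and Timp2 at 48.1 FPKM. Mmp19 was at 19.0, Mmp8 at 12.5, Timp1 at 3.54, Mmp13 at 2.25, Mmp9 at 1.37, Timp3 at 0.868 and Mmp2 at 0.732 FPKM. The range of Timp2 did not overlap that of Mmp19, nor Mmp19 that of Mmp8, nor Mmp8 that of Timp1. All other neighbours in this order overlapped in range. Mmp12 was above Mmp14 in 5 of 6 libraries, with wild-type replicate 1 as the exception (59.7 and 60.9 FPKM), and Mmp14 was above Timp2 in 4 of 6.

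**Figure D1:**
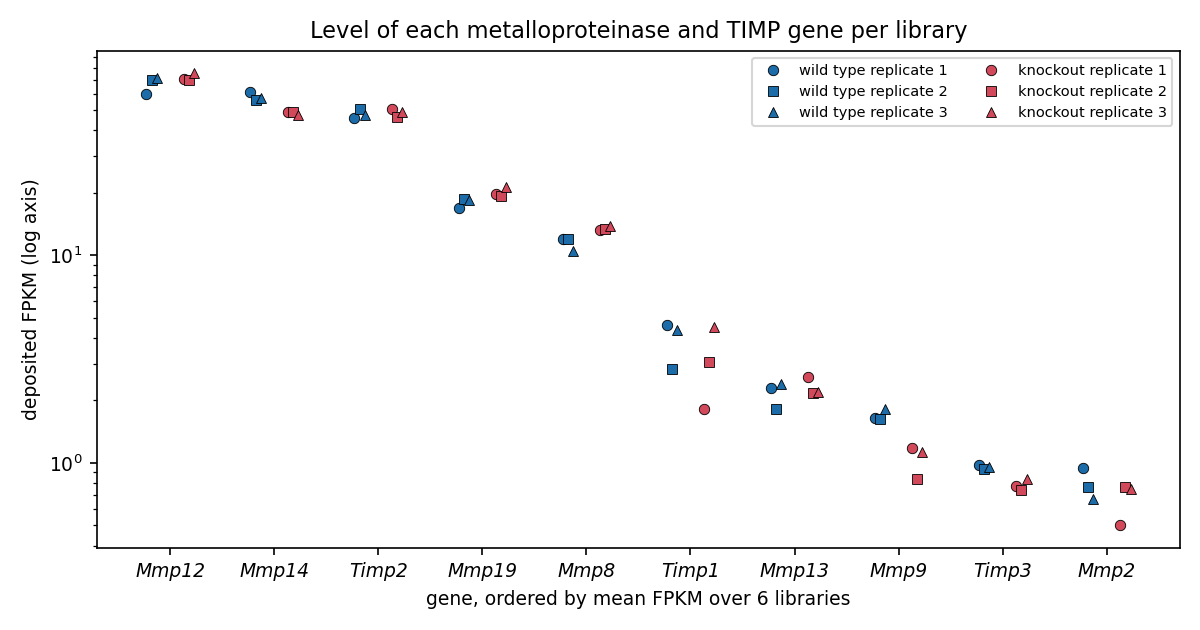
Deposited FPKM on a log axis for each gene, ordered by mean level, with 1 point per library (blue wild type, red knockout, shape by replicate number). Mmp12, Mmp14 and Timp2 lie between 45.9 and 75.1 FPKM in every library, while Mmp9, Timp3 and Mmp2 lie between 0.501 and 1.82 FPKM.

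None of the 10 genes passed the threshold in the edgeR quasi-likelihood test, with an adjusted p under 0.05 over the 16239 genes tested as the threshold (background 11 genes called, 0.0677%, of which 0.0246% higher and 0.0431% lower in knockout). At an unadjusted p under 0.05 there were 4, the lower Mmp14, Mmp9 and Timp3 and the higher Mmp8, where 10.4% of all genes tested had such a p. DESeq2 called Mmp14 and Mmp9, where it called 3.77% of the genes to which it gave an adjusted p, and limma on log2(FPKM + 1) called none of the 8 members it tested. The libraries of the genotypes did not overlap in CPM for 5 members, Mmp9, Mmp14 and Timp3 lower and Mmp8 and Mmp19 higher in knockout, where 17.6% of all genes tested did not overlap (8.89% lower and 8.68% higher). The median log2 fold change of the 10 was -0.13, beside -0.0019 over all genes tested. With 3 libraries a group, the smallest p of a two-sided exact permutation test is 0.1, which each of these 5 reached.

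**Figure D2:**
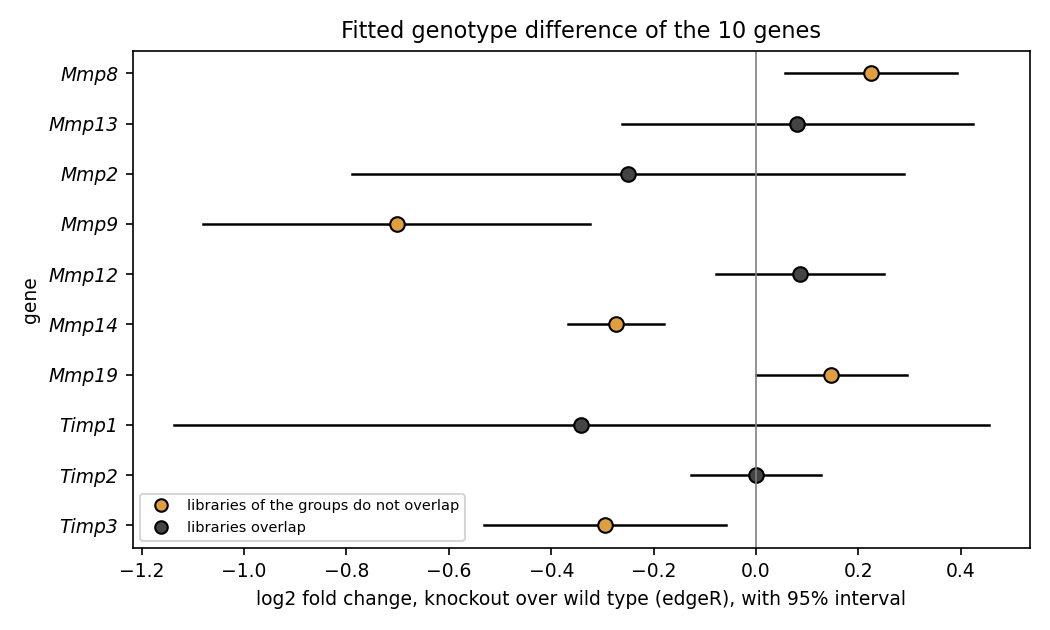
Fitted log2 fold change of knockout over wild type for each gene (point) with its 95% interval (line), orange where the libraries of the groups did not overlap in CPM. The intervals of Mmp9, Mmp14 and Timp3 lie below 0 and that of Mmp8 above 0, before adjustment for the number of genes tested.

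Mmp14 encodes the membrane-anchored collagenase MT1-MMP, which also activates the precursor of the gelatinase MMP2. The gene (ENSMUSG00000000957) lies on the plus strand of chromosome 14, 54431612 to 54441265. Its counts were 27495, 27914 and 29960 in wild-type against 24164, 23744 and 22884 in knockout libraries. On the CPM scale that was 404, 375 and 381 in wild-type replicates 1 to 3 and 323, 325 and 313 in knockout replicates. Every knockout library was below every wild-type library, and the replicates within a group were close, with a coefficient of variation of 3.98% and 2.01%. Knockout was at 82.7% of wild type (log2 fold change -0.27, SE 0.0405, 95% interval -0.37 to -0.18). This did not pass (edgeR adjusted p = 0.0756), although it ranked 41 by p among the 16239 genes. The adjusted p ran from 0.0950 to 0.262 when a single library was left out and was 1.93e-05 in DESeq2. In bulk RNA, fewer cells of a type and less RNA per cell cannot be told apart.

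The gelatinases cut denatured collagen and basement membrane collagen. Mmp9 encodes gelatinase B (ENSMUSG00000017737, chromosome 2, 164940780 to 164955850, plus strand). Its counts were 443, 481 and 567 in wild-type against 349, 242 and 325 in knockout libraries. In CPM the wild-type libraries were at 6.52, 6.47 and 7.21 and the knockout libraries at 4.66, 3.31 and 4.44, without overlap and with knockout replicate 2 the lowest. The means were 6.73 ± 0.415 and 4.14 ± 0.727 CPM (SD, n = 3 each), so knockout was at 61.5% of wild type, the lowest such value among the 10 genes. The log2 fold change of -0.70 (SE 0.162, 95% interval -1.08 to -0.32) did not pass in edgeR (adjusted p = 0.169, 0.265 to 0.381 with a library left out), while DESeq2 gave an adjusted p = 0.0112. On the log2(FPKM + 1) scale, which compresses low genes, limma gave -0.40 (adjusted p = 0.150).

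Mmp2, which encodes gelatinase A, was the least abundant of the 10 (ENSMUSG00000031740, chromosome 8, 92827291 to 92853420, plus strand). Wild-type libraries were at 3.54, 2.92 and 2.53 CPM and knockout libraries at 1.88, 2.88 and 2.79 CPM. Knockout replicate 1 was the lowest and wild-type replicate 1 the highest, and the other 4 libraries of both genotypes overlapped. The fitted log2 difference was -0.25 (SE 0.230, 95% interval -0.79 to 0.29, edgeR adjusted p = 0.771), and it was -0.08 without knockout replicate 1 and -0.11 without wild-type replicate 1.

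The collagenases cut intact fibrillar collagen. Mmp8 encodes the enzyme first described in neutrophils (ENSMUSG00000005800, chromosome 9, 7558456 to 7568485, plus strand). Counts of 2187, 2426 and 2225 in wild-type against 2659, 2622 and 2730 in knockout libraries gave 32.2, 32.6 and 28.3 CPM against 35.5, 35.9 and 37.3 CPM. All knockout libraries were above all wild-type libraries, with wild-type replicate 3 the lowest. Knockout was at 1.17 times wild type (log2 fold change 0.22, SE 0.0717, 95% interval 0.06 to 0.39), which did not pass in edgeR (adjusted p = 0.336) or DESeq2 (0.153).

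Mmp13 encodes collagenase 3, the main interstitial collagenase of mouse (ENSMUSG00000050578, chromosome 9, 7272514 to 7283331, plus strand). Its levels were 6.85, 5.47 and 7.17 CPM in wild-type against 7.66, 6.47 and 6.49 CPM in knockout libraries. The groups overlapped, with wild-type replicate 2 the lowest and knockout replicate 1 the highest library. The log2 fold change of 0.08 (95% interval -0.26 to 0.42, edgeR adjusted p = 0.901) changed sign, to -0.029 without wild-type replicate 2 and to -0.0046 without knockout replicate 1.

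Mmp12 encodes macrophage elastase, which cuts elastin (ENSMUSG00000049723, chromosome 9, 7344381 to 7369499, plus strand). Wild-type libraries were at 481, 569 and 573 CPM and knockout libraries at 562, 560.2 and 602 CPM. Wild-type replicate 1 was the lowest and the other 5 libraries overlapped. The means were 541 ± 51.9 and 575 ± 23.5 CPM (SD, n = 3 each), a log2 fold change of 0.09 (95% interval -0.08 to 0.25, edgeR adjusted p = 0.740). Without wild-type replicate 1, the log2 fold change was 0.0082, the lowest over the alternatives.

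Mmp19 encodes a secreted metalloproteinase outside the main classes (ENSMUSG00000025355, chromosome 10, 128790910 to 128800824, plus strand). It was at 66.2, 74.0 and 72.5 CPM in wild-type against 77.0, 75.4 and 83.1 CPM in knockout libraries. The groups did not overlap, but knockout replicate 2 lay close to wild-type replicate 2. The log2 fold change of 0.15 (SE 0.0631, 95% interval -0.00095 to 0.29) did not pass (edgeR adjusted p = 0.482). In GENCODE M21, 789 of its 3533 exonic bases also belong to Tmem198b on the opposite strand, and whether counting used strand is not stated, so its counts are uncertain. Tmem198b itself was at 8.89 ± 0.889 and 8.98 ± 0.292 CPM (SD, n = 3 each).

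**Figure D3:**
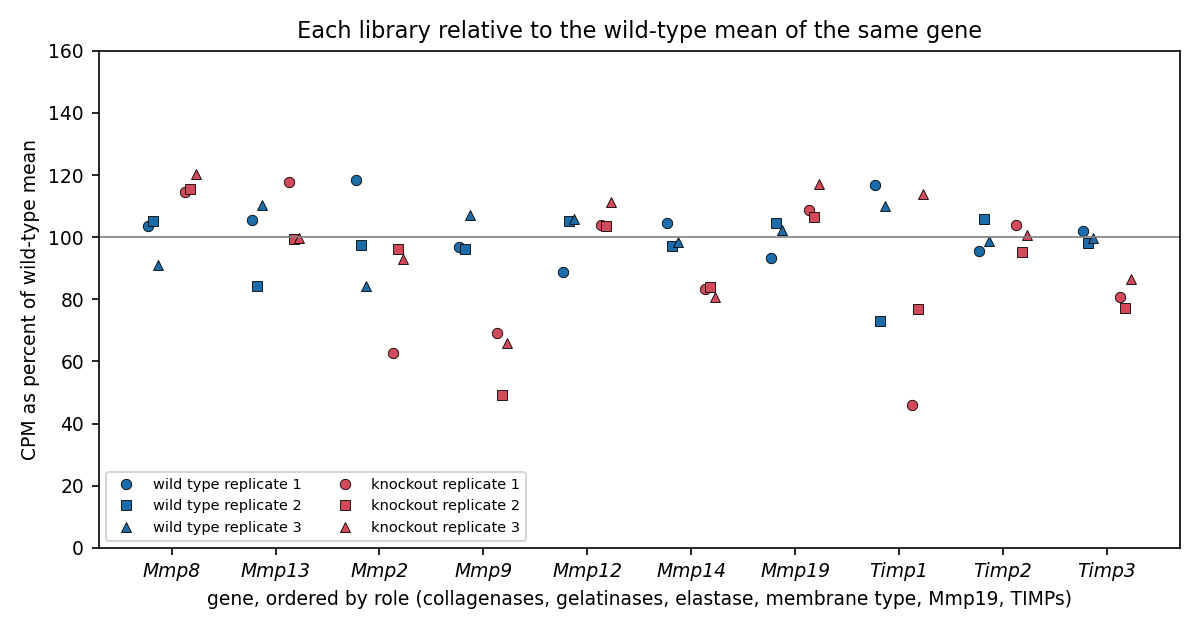
CPM of each gene in each library as a percent of the wild-type mean of that gene (line at 100), blue wild type and red knockout. Mmp9 spans 49.2% to 69.3% in knockout, Mmp14 80.8% to 83.9% and Timp3 77.3% to 86.7%, while Timp1 spans 46.0% to 114% across knockout libraries.

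Timp1 encodes a secreted inhibitor that also binds the precursor of MMP9 (ENSMUSG00000001131, chromosome X, 20870166 to 20874735, plus strand). Its counts were 312, 213 and 340 in wild-type against 135, 221 and 327 in knockout libraries. In CPM the values were 4.59, 2.86 and 4.32 against 1.80, 3.02 and 4.47, so knockout replicate 1 was the lowest library and knockout replicate 3 lay between wild-type replicates 1 and 3. With coefficients of variation of 23.7% and 43.1% it was the most variable of the 10 genes. The fitted log2 difference was -0.34 (SE 0.340, 95% interval -1.14 to 0.46, edgeR adjusted p = 0.793), and it ran from -0.70 to -0.07 with single libraries left out. The gene lies within the span of Syn1 on the opposite strand but shares no exonic base with it in GENCODE M21.

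Timp2 encodes the inhibitor that, together with MT1-MMP, also takes part in the activation of the MMP2 precursor (ENSMUSG00000017466, chromosome 11, 118301069 to 118355740, minus strand). It was at 199, 221 and 206 CPM in wild-type against 217, 199 and 210.2 CPM in knockout libraries, with the lowest library in knockout and the highest in wild type. The means were 208.8 ± 10.9 and 208.8 ± 9.17 CPM (SD, n = 3 each), and the 95% interval of the log2 fold change ran from -0.13 to 0.13 (edgeR adjusted p = 0.999). Under the size factors of RLE and in DESeq2 the fitted value was 0.0016 and 0.0015, so its sign is not fixed.

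Timp3 encodes the inhibitor that stays bound to the matrix (ENSMUSG00000020044, chromosome 10, 86300372 to 86349506, plus strand). Counts were 603, 635 and 681 in wild-type against 524, 491 and 551 in knockout libraries, which is 8.87, 8.54 and 8.66 CPM against 7.00, 6.71 and 7.53 CPM. The wild-type libraries had a coefficient of variation of 1.92% and all lay above the knockout libraries. Knockout was at 81.5% of wild type (log2 fold change -0.29, SE 0.101, 95% interval -0.53 to -0.06), which did not pass in edgeR (adjusted p = 0.368) or DESeq2 (0.289). In GENCODE M21, 1733 of its 8144 exonic bases also belong to Syn3 on the opposite strand, so its counts are uncertain. Syn3 had 2 to 21 counts per library.

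Because TIMPs bind metalloproteinases in pairs, the summed FPKM of the 3 inhibitor genes was set against that of the 7 protease genes. The protease sum was 154, 161 and 162 FPKM in wild-type against 156, 155 and 162 FPKM in knockout libraries. The inhibitor sum was 51.5, 54.2 and 52.8 FPKM against 52.9, 49.8 and 54.1 FPKM. Their ratio was 0.332 ± 0.0057 in wild-type against 0.331 ± 0.0092 in knockout libraries (SD, n = 3 each), and the groups overlapped. This rests in part on Mmp12 and Timp2. The mean ratio was 0.574 in wild type and 0.608 in knockout without Mmp12, and 0.0308 and 0.0248 without Timp2. The order of the genotypes therefore depends on the genes summed. Mmp14 also held a large part of the protease sum, 29.3% to 39.5% per library, and was not left out in turn. RNA ratios are no measure of active enzyme.

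Shares of the protease sum add up to 100%, so a lower share of one gene raises those of the others, and they were not tested. Mmp14 held 39.5%, 34.8% and 35.4% of it in wild-type against 31.3%, 31.6% and 29.3% in knockout libraries, without overlap. Mmp12 held 38.7%, 43.5% and 43.8% against 44.9%, 45.0% and 46.5%, and Mmp8 6.45% to 7.72% against 8.47% to 8.59%. Timp2 held 89.1% to 93.0% of the inhibitor sum in wild-type against 90.1% to 95.1% in knockout libraries. The FPKM ratio of Timp2 to Mmp14 was 0.754, 0.900 and 0.829 in wild-type against 1.03, 0.938 and 1.03 in knockout libraries. The groups did not overlap in this ratio, which was not tested. The ratio of Timp1 to Mmp9 was 2.80, 1.75 and 2.39 against 1.54, 3.67 and 4.01, with overlap.

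Mmp13, Mmp12 and Mmp8 belong to a cluster of 10 Mmp genes that spans 427 kb of chromosome 9 (7272514 to 7699585 in GENCODE M21), of which 7 had a row in the deposited table. Levels along it were uneven. Between Mmp12 at 66.9 ± 6.25 FPKM and Mmp8 at 11.4 ± 0.857 FPKM in wild-type libraries lay Mmp3 at 0.185 ± 0.0879 and Mmp10 at 0.0259 ± 0.0263 FPKM (SD, n = 3 each). Mmp7, at the far end, had 0 counts in every library, which allows up to 0.0382 to 0.0441 CPM (3 counts, counting error only). Mmp27, the next gene after Mmp8, was at 3.20, 3.35 and 3.38 FPKM in wild-type against 4.76, 4.11 and 4.35 FPKM in knockout libraries. As with Mmp8, all its knockout libraries were above the wild-type libraries, and its log2 fold change of 0.40 (SE 0.0995) did not pass (edgeR adjusted p = 0.204).

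**Figure D4:**
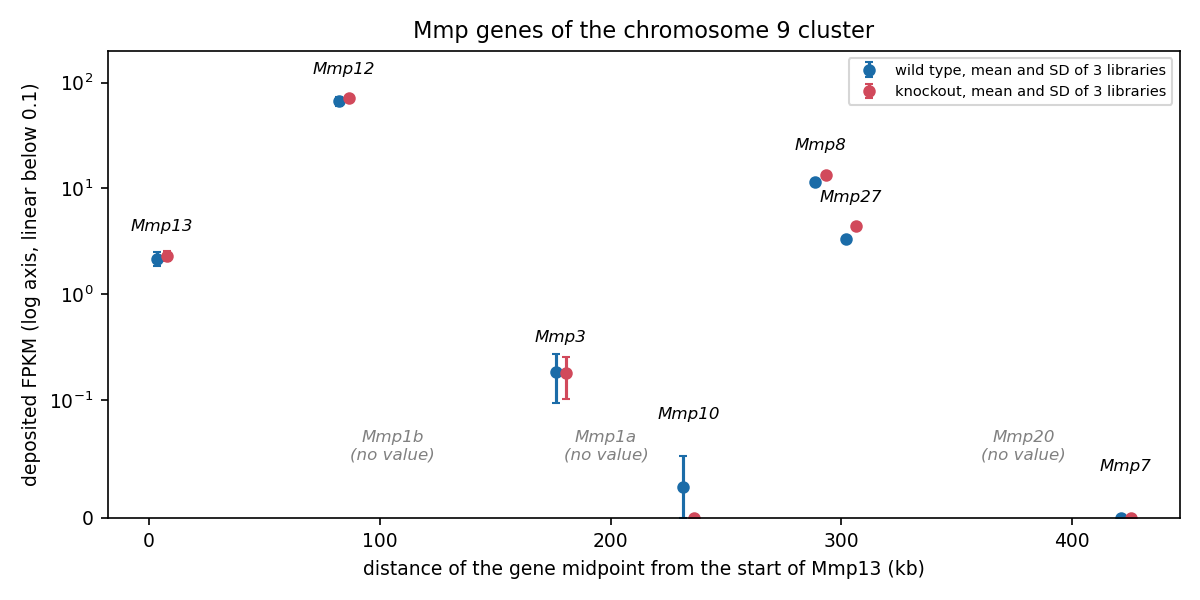
Deposited FPKM (mean and SD of 3 libraries, log axis that is linear below 0.1) of the chromosome 9 Mmp genes by distance from the start of Mmp13, with genes that had no value in grey. Mmp12, Mmp8, Mmp27 and Mmp13 stand at 2.17 FPKM or more in both genotypes, and the genes between Mmp12 and Mmp8 at 0.185 FPKM or less.

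The other genes of the family were few in these cells. Of 17 further Mmp and Timp genes, 14 were in the table and 6 had enough counts to be tested. None of the 6 passed in edgeR, and their median log2 fold change was -0.05. An unadjusted p under 0.05 was found for 1 (Mmp27, higher), where 10.4% of all genes tested had such a p (4.73% higher). Mmp25, which encodes a membrane-anchored leukocyte protease and was the most abundant of the 6 after Mmp27, was at 2.92 ± 0.912 and 2.41 ± 0.400 CPM (SD, n = 3 each).

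Among 22 genes for activators, inhibitors and partners of metalloproteinases, 16 were tested and 1 passed over all genes (background 0.0431% called lower), with 8 fitted values above and 8 below 0. That gene was Plau, which encodes urokinase, the enzyme that makes plasmin. It fell from 396 ± 13.9 to 306 ± 9.74 CPM (SD, n = 3 each), with a log2 fold change of -0.37 (edgeR adjusted p = 0.0495). Leaving out any single library ended the call (adjusted p = 0.0784 to 0.183). So did either limma fit, no filter, RLE factors or the replicate block (0.0501 to 0.143), while Plau passed in DESeq2 (1.16e-09). As the list was chosen with earlier results of these data known, its count beside the background is descriptive only.

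Of 18 ADAM and ADAMTS genes, a sister family of metalloproteinases, 15 were tested and none passed in edgeR (1 higher and 1 lower at an unadjusted p under 0.05, where 4.73% and 5.71% of all genes were, median -0.14). Adam8, a leukocyte surface protease, was at 343 ± 15.8 and 405 ± 10.9 CPM (adjusted p = 0.114). Adam17, the sheddase that releases TNF, was at 448 ± 17.3 and 399 ± 22.0 CPM (adjusted p = 0.303).

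The matrix proteins that these enzymes cut were represented by 17 genes, all tested, of which none passed in edgeR (1 higher and 2 lower at an unadjusted p under 0.05, against 4.73% and 5.71% of all genes, median -0.12). Fitted values were above 0 for 6 of the 17, against 49.5% of all genes tested. Spp1, which encodes osteopontin, was at 733 ± 36.5 and 888 ± 27.7 CPM (adjusted p = 0.0796), and fibronectin (Fn1) was at 315 ± 41.6 and 332 ± 22.4 CPM (adjusted p = 0.852).

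Transcription factors with known sites in Mmp promoters made up a list of 18 genes, all tested. None passed in edgeR. At an unadjusted p under 0.05, 7 were lower and 1 higher, where 5.71% and 4.73% of all genes were, and the median log2 fold change was -0.15. The list was chosen with earlier results of these data known, so its counts beside the background are descriptive only. Groups did not overlap for 7 lower and 2 higher members, against 8.89% and 8.68% of all genes tested. Jun, an AP-1 subunit, was at 116 ± 2.25 and 104 ± 1.61 CPM (adjusted p = 0.213), and the NF-κB subunit gene Rela was at 97.5 ± 4.74 and 81.6 ± 4.30 CPM (adjusted p = 0.169). Values of these factors are given beside those of the proteases, and a link between them was not tested.

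Several of the 10 genes are also made by other cells, so markers of those cells were set beside them. Summed fibroblast and mesothelial markers (13 genes) were at 102 to 109 CPM in wild-type against 77.7 to 89.6 CPM in knockout libraries. By the means this was 79.4% of wild type. Among the 10 metalloproteinase and TIMP genes, the fitted log2 fold change was below 0 for 6 and above for 4, with Timp2 at 208.8 CPM in both genotypes. Of the 13 markers, 10 had a fitted log2 fold change below 0 and 3 above, where 49.5% of all genes tested were above 0. None of the 13 passed in edgeR. At an unadjusted p under 0.05, 4 were lower and 1 higher, where 5.71% and 4.73% of all genes tested were. None was at 0 apart from Lum in knockout replicate 1. The collagen gene Col1a2 was at 30.4 to 33.7 CPM in wild-type against 25.6 to 30.9 CPM in knockout libraries. Dcn, which encodes decorin and was picked after its values were seen, was at 16.3 ± 0.849 and 11.7 ± 0.501 CPM (SD, n = 3 each, edgeR adjusted p = 0.102). Also below 0 were Krt19, Msln, Krt8 and Krt18, with log2 fold changes of -1.50, -1.11, -0.85 and -0.41. Of these, Krt19 and Krt8 were lower without overlap. In the other direction, the mesothelial gene Wt1 was at 0.900 ± 0.0166 and 1.37 ± 0.0844 CPM without overlap (adjusted p = 0.417). Lum and Upk3b had log2 fold changes of 0.61 and 0.02. Summed dendritic cell markers (6 genes) were at 29.2 to 35.6 and 23.6 to 24.5 CPM, and mast cell markers (6 genes) at 4.98 to 6.10 and 3.02 to 4.25 CPM, with Cd209a at 0 in 5 libraries and Fcer1a at 0 in 4. The dendritic cell sum came mostly from Fscn1 (16.9 and 11.8 CPM) and Ccr7 (11.7 and 9.34 CPM). Flt3 was at 1.41 and 1.44 CPM and Zbtb46 at 1.34 and 1.30 CPM. Of the 5 dendritic cell markers tested, 4 had a fitted log2 fold change below 0 and 1 above. All 5 mast cell markers tested were below 0 (median -0.82), and none passed in edgeR. The part of these cells in the values of Mmp14, Mmp9, Mmp2 and Timp3 was not tested.

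Neutrophils store MMP8 and MMP9 in granules. Of 11 neutrophil markers in the table, Ly6g and Retnlg were at 0 in all 6 libraries and S100a9 had 0 to 15 counts. The summed level of 77.4 to 82.5 CPM in wild-type against 71.4 to 73.1 CPM in knockout libraries came mostly from Csf3r (48.7 and 45.4 CPM) and S100a8 (24.6 and 21.6 CPM). Lcn2 was lower as well, without overlap, with wild-type values of 4.71, 8.66 and 5.16 CPM and knockout values of 4.21, 4.42 and 3.49 CPM. Its log2 fold change of -0.61 did not pass (edgeR adjusted p = 0.444). Of the 5 neutrophil markers tested, 3 had a fitted log2 fold change below 0 and 2 above. Some of the other neutrophil markers went the other way at few counts. S100a9 had 4, 0 and 0 counts in wild-type against 15, 15 and 8 in knockout libraries, Ltf had 14, 43 and 47 against 46, 85 and 47, and Cxcr2 had 23, 0 and 0 against 12, 23 and 12. The part of neutrophils in the values of Mmp8 and Mmp9 was not tested.

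**Figure D5:**
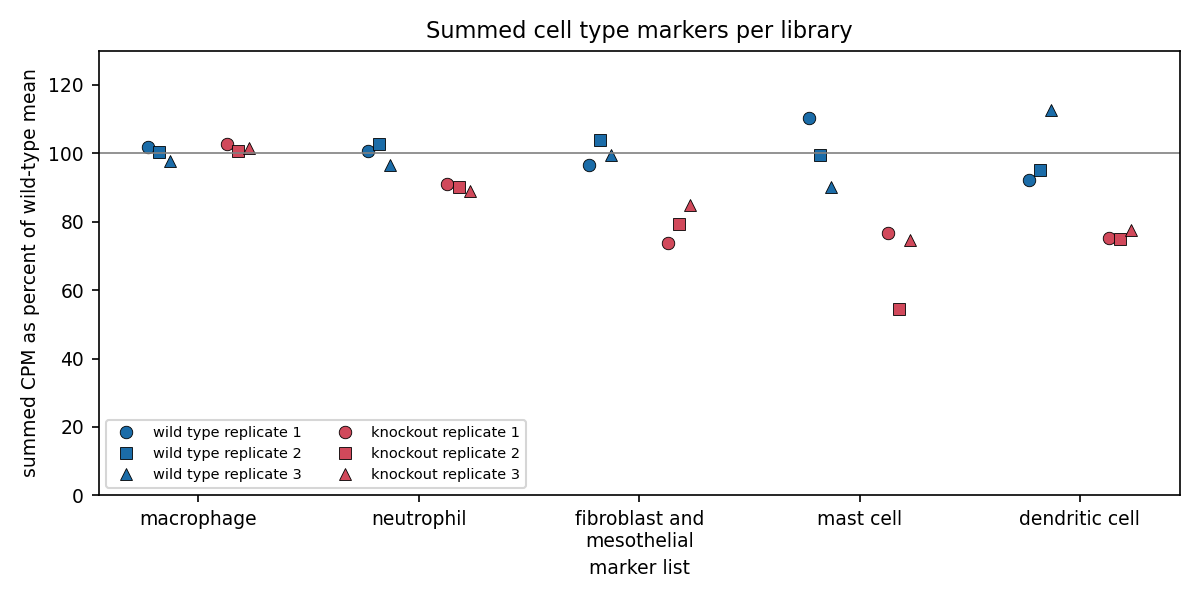
Summed CPM of each cell type marker list per library as a percent of its wild-type mean (line at 100), blue wild type and red knockout. The macrophage sum is at 102% of wild type in knockout by the means (97.5% without Itgam), the neutrophil sum at 90.1% and the fibroblast and mesothelial sum at 79.4%.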

How the data were processed

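Poly(A) RNA of 6 libraries was sequenced in pairs of reads, per the labels' protocols, and the submitters' processing notes list HISAT2 2.0. The sources used here name no counting tool, strand setting, annotation or build. The deposited counts are whole numbers per gene, and the deposited FPKM values were scaled by the authors for length and library size, per the file headers. The table also has 12 value columns that belong to no sample of this series, and these were left out. Coordinates are as deposited and equal those of GENCODE M21 (GRCm38) for 9 of the 10 genes, Mmp14 ending earlier.

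Genes kept by filterByExpr (16239) were scaled by TMM and tested two-sided with edgeR 4.0.16 (R 4.3.3), with genotype as the only term and Benjamini-Hochberg adjustment over all of them. Fold changes are knockout over wild type. For a symbol with several IDs, the ID of highest mean count stands. The fit was run on counts simulated from its own fitted means and dispersions. Such a run cannot show how well these describe the real libraries. Chi-square over degrees of freedom was 36.7 to 42.8 between libraries of a group, far from duplicates. Alternatives used DESeq2 1.42.0, limma 3.58.1 on log2(FPKM + 1) and log2(FPKM + 0.1) with at least 1 FPKM in at least 3 libraries, RLE factors, no filter, the replicate block and each library left out. From each pathway list (not the cell type markers) up to 4 genes past the threshold, or otherwise the 2 of highest FPKM, were named. The genes and lists were chosen with earlier results of these data known. The alternatives for Plau, the ratios and shares of single genes, the macrophage sum without Itgam, and the naming of single cell type markers, of the chromosome 9 genes and of overlapping genes were added after values were seen.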

Additional observations from a re-analysis of the deposited data

How the results depend on the processing

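The number of genes called was 11 and became 7 without the filter, 457 in DESeq2 (which gave 4104 of the genes no adjusted p), 3 with the replicate block, and 7 to 35 with single libraries left out. It stayed within 1.5 times with RLE factors (9) and in both limma fits (8 each). Of the 10 members, DESeq2 called 2, Mmp14 and Mmp9, and no other of the 12 alternatives called any. Same-numbered libraries deviated together by correlations of 0.0345, 0.0510 and 0.0059. Of the 3 wild-type libraries, 2 correlated best with the knockout library of their own number. With so few libraries this cannot decide whether equal numbers mark a pair or a shared batch. The replicate block called 0 members, and the main fit had also called 0. For 8 members the direction was the same in every alternative run. Mmp13 ran from -0.029 (without wild-type replicate 2) to 0.16 with single libraries left out, and was -0.0046 without knockout replicate 1. Timp2, at -0.00029, went to 0.0016 with RLE factors, 0.0015 in DESeq2, 0.012 in both limma fits, 0.00010 with the replicate block, and ran from -0.034 to 0.041 with single libraries left out (0.041 without wild-type replicate 2, 0.030 without knockout replicate 2). The ratio of inhibitor to protease FPKM was 0.574 and 0.608 in wild type and knockout when Mmp12 was left out of the sum, and 0.0308 and 0.0248 when Timp2 was, as each holds a large part of its sum. Mmp2 and Timp3 were under the FPKM filter and have no limma value. Timp1, Mmp2, Mmp9, Mmp13 and Timp3 rest on 135 to 681 counts per library.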
